A study of Mus musculus with 119 samples.

Results

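The CCAAT/enhancer-binding proteins (C/EBPs) are basic leucine zipper transcription factors that bind DNA as dimers. Here they are described as 4 genes taken by symbol, Cebpa, Cebpb, Cebpd and Cebpg, of 18098 genes measured by RNA-seq in bone marrow-derived macrophages (BMDMs). All 4 passed the filter on low values. Cells of C57BL/6(NIMR) mice were grown in L-cell conditioned medium and received 100 ng/ml LPS, the bacterial ligand of TLR4, or no stimulus. The series asks which genes TPL-2 controls. TPL-2 is the kinase encoded by Map3k8, and it activates ERK1/2 through MKK1/2. There were 22 libraries of untreated WT cells. Map3k8[D270A] cells, whose TPL-2 has no kinase activity, gave 24 libraries. Elk1-/-Elk4-/- cells, which lack a pair of ternary complex factors (TCFs), gave 16. Nfkb1[SS/AA] cells, in which the p105 protein that holds TPL-2 cannot be phosphorylated by IKK at the mutated serines, gave 18. WT cells given 0.1 µM of the MKK1/2 inhibitor PD0325901 gave 21 libraries, their DMSO controls 3, and WT cells given 2 µM of the RSK inhibitor RSKi47 gave 15. Inhibitors were added 10 min before LPS. Sampling was before LPS and at 0.5, 1 or 2 h of it, but Nfkb1[SS/AA] and PD0325901 libraries stop at 1 h. The replicates are described as biological, but the sources used here give neither the ages of the mice nor whether each replicate came from a mouse of its own, so that p-values measure the spread between these libraries.

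C/EBPα is known for its role in building the myeloid lineage and for holding cells out of the cell cycle. C/EBPβ and C/EBPδ are known as inducible activators of inflammatory and acute phase genes in macrophages, and C/EBPβ can itself be phosphorylated by ERK1/2 and RSK. C/EBPγ lacks a transactivation domain and acts as a dimer partner of the others and of ATF4. All values below are deposited normalised values on a scale read as log2, so a difference of 1 stands for 2-fold. The study describes normalised counts it plots as log2-transformed, but the log base of the deposited values is not stated in the sources used here.

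The genes lie at 3 places in the mouse genome (GRCm38.p6). Cebpa is a single-exon gene at chr7:35119293-35121928 on the plus strand. Cebpg, which has 3 exons in the annotation, lies beside it at chr7:35046422-35056566 on the minus strand. Cebpb, also without introns, lies at chr2:167688915-167690432 on the plus strand, and Cebpd, another single-exon gene, at chr16:15887286-15889545 on the plus strand. The 250 bases before the RefSeq start are shown for Cebpa and Cebpb, a pair that LPS moved in opposite directions. In capitals are copies of TGACG, the half-site of the cyclic AMP response element, on either strand (reversed, CGTCA). The Cebpb window, chr2:167688665-167688914 on the plus strand, held 3 copies, which begin 180, 53 and 7 bases before the start. The Cebpa window, chr7:35119043-35119292 on the plus strand, held none and had TATAAA 30 bases before the start.
Cebpb: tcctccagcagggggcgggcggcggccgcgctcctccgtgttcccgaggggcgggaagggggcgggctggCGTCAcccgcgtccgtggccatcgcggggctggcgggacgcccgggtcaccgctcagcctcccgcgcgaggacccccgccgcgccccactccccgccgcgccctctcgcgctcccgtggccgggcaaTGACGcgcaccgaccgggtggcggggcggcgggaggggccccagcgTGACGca
Cebpa: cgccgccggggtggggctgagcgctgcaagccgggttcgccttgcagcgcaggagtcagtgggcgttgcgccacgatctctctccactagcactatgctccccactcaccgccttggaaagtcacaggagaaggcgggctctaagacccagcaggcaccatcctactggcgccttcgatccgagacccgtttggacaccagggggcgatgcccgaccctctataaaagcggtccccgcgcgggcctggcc

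Of 32851 RefSeq windows of the same length, 17.8% held a TGACG on either strand and 0.688% held 3 or more. The window before Cebpg held no TGACG and 2 CCAAT boxes in reverse, 89 and 28 bases before its start, where 33.8% of all windows held a CCAAT box. Cebpd had no entry in the set of windows used, although it has a RefSeq transcript. None of the windows of the other genes held the ETS core CCGGAAG, which was in 6.91% of all windows, or the C/EBP palindrome TTGCGCAA, which was in 0.164%. A CArG box and an NF-kB motif were also without a match in them, against 1.47% and 7.25% of all windows. Such matches describe letters and not bound sites.

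The libraries had the profile of macrophages, and some arms also carried markers of other cells. The summed log2 level of 9 macrophage markers ran from 18.38 to 19.26 over all groups. Elk1-/-Elk4-/- libraries lay wholly below WT in it at each of the 4 times, at 18.38 to 18.47 against 18.63 to 18.82 without LPS and 18.68 to 18.75 against 18.91 to 19.04 at 2 h. Of 12 markers of granulocytes and their precursors, the defining genes Elane, Mpo, Prtn3, Ctsg and Ly6g were under the filter on low values in every group, and 7 were tested. Of these 7, limma called 6 higher in Elk1-/-Elk4-/- than in WT cells at each of the 4 times, with a summed level of all 12 of 10.84 to 11.47 against 9.13 to 10.17 in WT. Of all genes, 51.8%, 44.4%, 53.4% and 50.8% were called at these times in either direction. Between 5 and 7 of the 7 were also called higher with RSKi47, with PD0325901 and LPS and in the DMSO controls, where 23.6% to 53.0% of all genes were called. Of 9 adipocyte and stromal markers, 6 were under the filter in every group, among them the adipocyte genes Adipoq, Plin1 and Cfd. All 3 that were tested were higher in unstimulated RSKi47 cells, where 53.0% of all genes were called. The summed level of all 9 was 5.86 to 9.44 there, against 4.63 to 4.99 in WT. Elk1 and Elk4 lay at 6.17 to 6.59 and 5.51 to 5.88 in the Elk1-/-Elk4-/- libraries and did not overlap WT, where they lay at 9.04 to 9.49 and 7.57 to 8.49. Neither Map3k8 nor Nfkb1 levels can check point mutations. The root mean square distance of a library to the others of its group was 0.0925 to 0.304 log2 units, with a median of 0.149, and was largest for Nfkb1[SS/AA] replicate 2 at 1 h. Whether these markers came from other cells or from the macrophages themselves was not tested. Fewer cells of a type and less RNA per cell cannot be told apart here.

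LPS moved the C/EBP genes of WT cells unequally. Cebpb had the largest rise at 0.5 h and its highest mean at 1 h, Cebpd had the largest rise at 2 h, Cebpa was lower at 1 and 2 h, and Cebpg changed by at most 0.17. The limma test, with Benjamini-Hochberg adjustment over all 11884 genes tested, called 3 of the 4 genes at 0.5 h, where 11.6% of all genes were called. It called 3 at 1 h, where 46.8% were called, and all 4 at 2 h, where 71.5% were called. The shares of all genes at 1 and 2 h are so high that the count of members says little there, and the sizes carry more. A called change of at least 2-fold was met by Cebpb alone of the 4 at 0.5 and 1 h, against 0.623% and 4.14% of all genes.

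**Figure D1:**
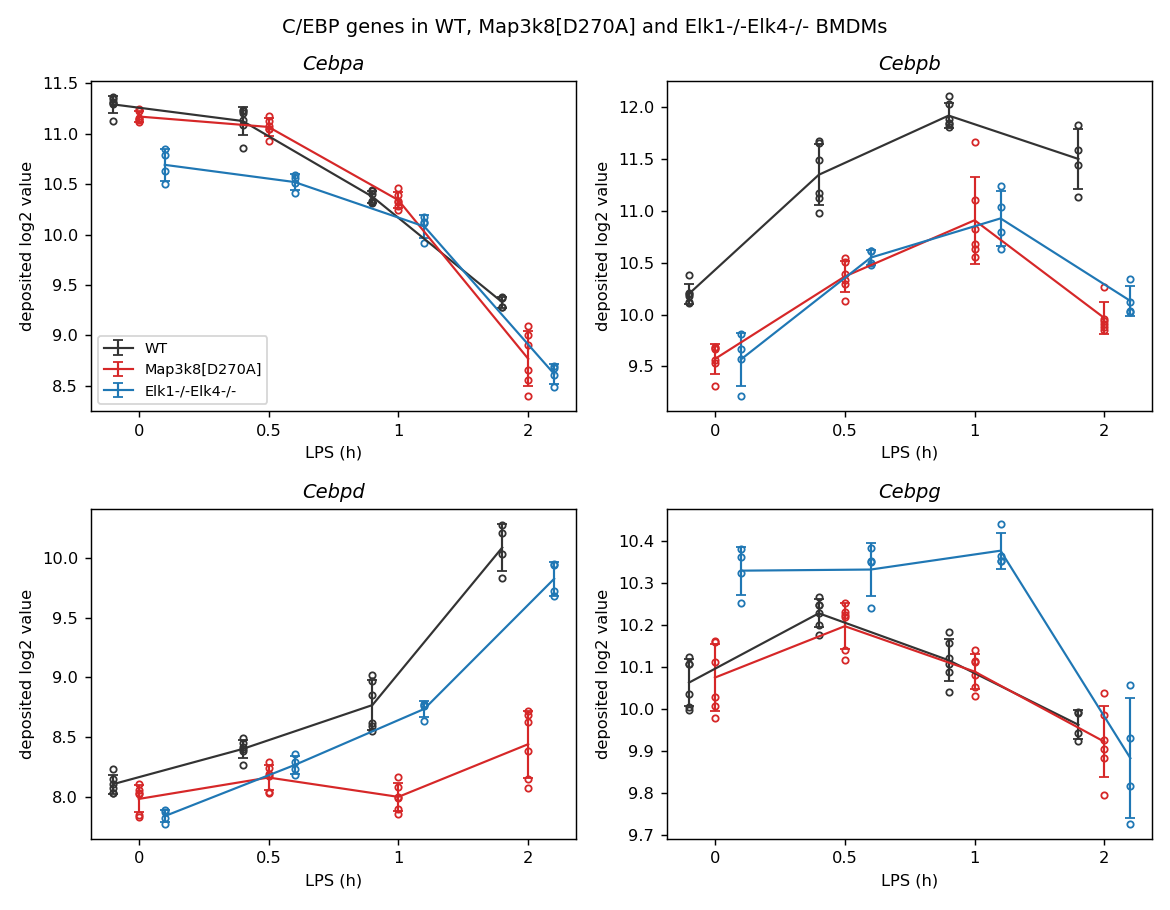
Deposited log2 value (vertical axis) of each C/EBP gene by hours of LPS (horizontal axis, equal steps) in WT, Map3k8[D270A] and Elk1-/-Elk4-/- BMDMs. Open circles are libraries, and lines and bars are means ± SD. Both mutant lines lie under WT for Cebpb at every time, whereas for Cebpd the Elk1-/-Elk4-/- line ends at 9.83 near the WT mean of 10.09 and the Map3k8[D270A] line at 8.44.

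Cebpb had the largest rise of the 4 genes at 0.5 h, a time at which Cebpd and Cebpg were also called higher. In unstimulated WT cells it lay between 10.11 and 10.38, with a median of 10.19 (n = 6). After 0.5 h of LPS it lay between 10.98 and 11.67, with a median of 11.33, and after 1 h between 11.81 and 12.11, with a median of 11.87. The 4 WT libraries at 2 h held 11.14, 11.59, 11.83 and 11.44. Each stimulated group lay wholly above the unstimulated one, and the 1 h and 2 h groups met at their edges. The rise was 1.15 ± 0.13 (SE) at 0.5 h, 1.72 ± 0.13 at 1 h and 1.30 ± 0.14 at 2 h, which is 2.22-, 3.29- and 2.46-fold (limma, adjusted p = 2.45e-10, 1.29e-17 and 5.76e-12).

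Cebpb was lower without TPL-2 kinase activity at every time, including before LPS. The 6 unstimulated Map3k8[D270A] libraries lay between 9.31 and 9.69, with a median of 9.62, all below WT. After 0.5 h of LPS they lay between 10.13 and 10.55, with a median of 10.36. After 1 h they lay between 10.56 and 11.67 around a median of 10.75, where replicate 2 held the 11.67 and the others at most 11.10. After 2 h they had fallen back to 9.85 to 10.27, with a median of 9.92, while WT cells still held 11.14 or more. No group overlapped WT at the same time. The difference from WT was -0.63 ± 0.13 (SE) unstimulated, -0.98 ± 0.13 at 0.5 h, -1.01 ± 0.13 at 1 h and -1.53 ± 0.14 at 2 h, or 0.647, 0.507, 0.497 and 0.345 of the WT level (limma, adjusted p = 0.00213, 1.41e-07, 1.96e-08 and 8.08e-13).

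Few genes were called between these genotypes at the early times, with limma calling 1.44% and 1.37% of all genes before LPS and at 0.5 h, against 9.79% after 1 h and 27.7% after 2 h. Of the 4 C/EBP genes, 1 was called at each of the first times, 2 at 1 h and 3 at 2 h. As an alternative, the comparison was repeated in WT replicates 4 to 6 with Map3k8[D270A] replicates 1 to 3, and in WT replicates 7 to 9, of which only replicate 7 was sampled at 2 h, with Map3k8[D270A] replicates 4 to 6. The labels do not tie these libraries to each other, and the lone WT library at 2 h in the second set was taken to vary like the other groups. Within the first set the Cebpb difference was -0.65, -0.67, -0.86 and -1.62 from the unstimulated cells to 2 h, and within the second -0.61, -1.29, -1.16 and -1.41. Adjusted p in the first set, with fewer libraries, was 0.051 before LPS and 0.0561 at 0.5 h (limma), and every other value in both sets passed 0.05.

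The rise of Cebpb over its own baseline differed between Map3k8[D270A] and WT cells, by a test of the difference, only at 2 h. Map3k8[D270A] cells gained 0.79 ± 0.13 (SE) at 0.5 h, 1.34 ± 0.13 at 1 h and 0.39 ± 0.13 at 2 h, beside percentages of all genes called of 5.08, 41.9 and 69.5 in limma. The gap to the WT gain was -0.35 and -0.38 at 0.5 and 1 h, which limma did not call (adjusted p = 1 and 0.513) where it called 0.109% and 2.02% of all genes, and -0.91 ± 0.19 at 2 h (adjusted p = 0.000342), when 15.5% of all genes had a gain that differed. Within the first and second sets of replicates the gap was -0.02 and -0.68 at 0.5 h and -0.21 and -0.55 at 1 h, none of them called (adjusted p = 0.0649 to 1), and -0.97 and -0.80 at 2 h, both called. At 2 h the mutant was nearer to its starting level, which was itself lower than in WT.

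Cebpb in Elk1-/-Elk4-/- cells lay at levels close to those of Map3k8[D270A] cells. The 4 unstimulated libraries held 9.81, 9.57, 9.67 and 9.21. After 0.5 h they held 10.62, 10.50, 10.61 and 10.47, after 1 h 11.24, 11.04, 10.80 and 10.63, and after 2 h 10.34, 10.12, 10.04 and 10.03. Every one of these 16 libraries was below all WT libraries of its time. Differences from WT were -0.63, -0.80, -0.99 and -1.37 in order of time (limma, SE 0.14 to 0.15, adjusted p = 0.000177, 7.53e-06, 6.17e-08 and 1.94e-10). Limma called 4, 3, 3 and 3 of the C/EBP genes at these times, but 51.8%, 44.4%, 53.4% and 50.8% of all genes were called too. Macrophage markers were lower and granulocyte markers higher in the same libraries, and their part in these values was not tested. The labels tie no WT libraries to these, so that genotype and the run of the experiment cannot be told apart. The gain of Cebpb over baseline was -0.74 ± 0.21 (SE) short of that in WT at 2 h (adjusted p = 0.00947), when 16.9% of all genes had a gain that differed. Set against Map3k8[D270A] cells, Cebpb differed by -0.00, 0.18, 0.02 and 0.17 (limma, adjusted p = 0.978, 0.241, 0.921 and 0.29), with 95% intervals that together run from -0.26 to 0.44.

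Cebpb was also below untreated WT after LPS in cells given PD0325901, for which there were no DMSO controls with LPS. With PD0325901 and LPS the 6 libraries lay between 10.30 and 10.52 at 0.5 h, with a median of 10.38, and between 10.85 and 11.23 at 1 h, with a median of 11.09. Both groups were wholly below WT, with differences of -0.94 and -0.86, at 0.520 and 0.551 of the WT level (limma, SE 0.12, adjusted p = 1.87e-10 and 2.33e-09). Limma called 1 of the 4 C/EBP genes at 0.5 h and 2 at 1 h, against 29.4% and 35.6% of all genes. Cebpb differed from Map3k8[D270A] cells by 0.04 and 0.15, neither of them called (adjusted p = 0.838 and 0.308), where 31.2% and 40.7% of all genes differed. Without Map3k8[D270A] replicate 2 the value at 1 h was 0.30 and was called (adjusted p = 0.0247).

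Without LPS, Cebpb did not keep a single level in the inhibitor arm. The DMSO controls, taken at 10 min, held 9.40, 9.61 and 9.42, and the libraries with 10 min of PD0325901 held 9.54, 9.39 and 9.20. At 40 min of inhibitor Cebpb stood at 9.78, 10.00 and 10.18, and at 70 min at 10.71, 10.62 and 10.37. So DMSO cells were already under all untreated WT cells, with a difference of -0.72 ± 0.14 (SE; limma, adjusted p = 6.16e-05), and Cebpb climbed while the inhibitor stayed on, by 0.60 at 40 min and 1.19 at 70 min over 10 min (adjusted p = 0.0177 and 2.71e-08). The climb at 40 min was not called when PD0325901 replicate 2 or 3 of 10 min or of 40 min was left out, at 0.51 to 0.71 over all libraries left out. There were no DMSO libraries at 40 or 70 min or with LPS, so that time in culture, solvent and inhibitor cannot be told apart there.

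Limma called none of the 4 C/EBP genes between 10 min of PD0325901 and DMSO, where 0.00% of all genes were called and 245 of 11970 genes passed an unadjusted p of 0.05, none of them a C/EBP gene. It called 2 between DMSO and untreated WT, against 23.6% of all genes, and 2 and 4 at 40 and 70 min against 10 min, where 3.58% and 6.09% of all genes were called. The moving baseline decides how the Cebpb response to LPS reads under PD0325901. Against the same total time in inhibitor, LPS added 0.42 ± 0.14 (SE) at 0.5 h and 0.49 ± 0.14 at 1 h, when 14.9% and 43.7% of all genes were called, with gaps to the WT gain of -0.73 and -1.22 (limma, adjusted p = 0.016 and 2.91e-07), where 1.48% and 3.58% of all genes had such a gap. The gap at 0.5 h was not called without PD0325901 replicate 2 or 3 of 40 min (-0.72 and -0.63), and the gain at 0.5 h not without replicate 1 or 2 of 40 min or replicate 3 or 4 with LPS (0.32 to 0.43). Against 10 min of inhibitor, a baseline chosen after the data were seen, it added 1.03 and 1.68, with gaps of -0.12 and -0.04 that were not called (adjusted p = 0.871 and 0.954). The plot of the inhibitor arm shows both baselines.

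**Figure D2:**
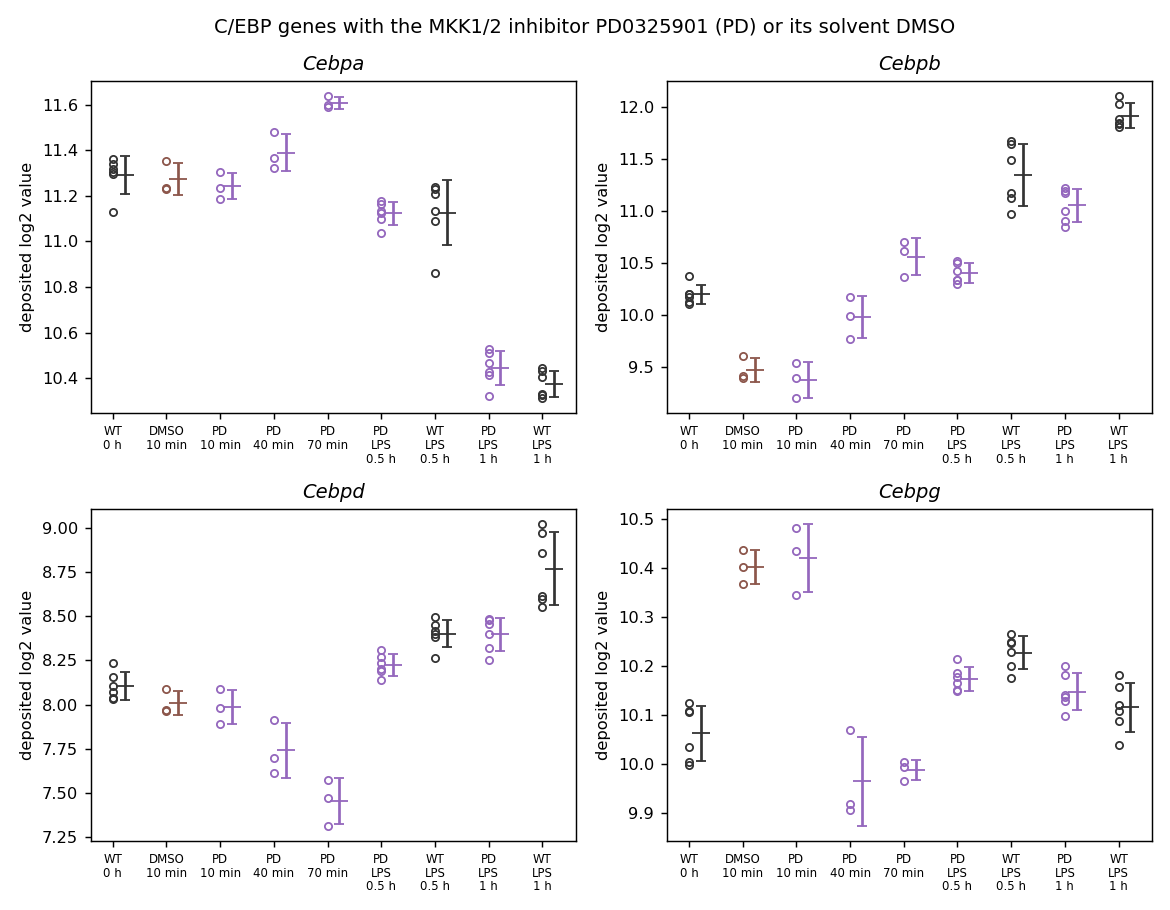
Deposited log2 value (vertical axis) of each C/EBP gene in untreated WT cells, DMSO controls and cells with PD0325901 for 10, 40 or 70 min without LPS or before and during 0.5 or 1 h of LPS (horizontal axis). Open circles are libraries, with mean ± SD beside them. Cebpb climbs from a mean of 9.38 to one of 10.56 between 10 and 70 min of inhibitor, and Cebpg drops from 10.42 to 9.99.

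With the RSK inhibitor, Cebpb was moderately lower than in WT cells at the early times and far lower at 2 h. With RSKi47 the unstimulated libraries held 9.89, 9.86, 9.92 and 10.11, and the 3 at 0.5 h held 10.69, 10.82 and 10.90. At 1 h they held 11.73, 11.32, 11.35 and 11.38, with replicate 1 apart, and at 2 h 10.28, 10.13, 10.15 and 10.65. All stimulated groups were wholly below WT, by -0.54 ± 0.14 (SE) at 0.5 h, -0.47 ± 0.13 at 1 h and -1.20 ± 0.14 at 2 h (limma, adjusted p = 0.000925, 0.00136 and 7.66e-12), and before LPS the gap of -0.25 was not called (adjusted p = 0.0907). The gap to the WT rise over baseline was -0.94 ± 0.19 at 2 h (adjusted p = 8.38e-05), where 21.0% of all genes had such a gap, and not called as different at 0.5 and 1 h, by -0.29 and -0.22 (adjusted p = 1 and 0.648), where 0.0167% and 5.54% were called. Limma called 2, 3, 3 and 4 of the C/EBP genes from 0 to 2 h, beside 53.0%, 48.2%, 52.8% and 52.1% of all genes. RSKi47 cells had more Cebpb than PD0325901 cells by 0.40 at 0.5 h and 0.39 at 1 h (adjusted p = 0.0149 and 0.00881), where 49.5% and 53.9% of all genes differed. The DMSO libraries belong to the PD0325901 experiment and lay -0.72 from untreated WT for Cebpb, so that solvent and RSKi47 cannot be told apart here. The calls between the inhibitors were lost without RSKi47 replicate 3 at 0.5 h (0.35) and without replicate 1 at 1 h (0.29).

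Nfkb1[SS/AA] was the arm in which Cebpb stayed nearest to WT, by the estimate at each of its 3 times. Its 6 unstimulated libraries lay between 9.95 and 10.28 around a median of 10.14, and those at 0.5 h between 10.86 and 11.38 around 11.17. At 1 h they lay between 11.12 and 11.94 around 11.46, so that all 3 groups overlapped WT. The overlap at 1 h came from replicate 2 alone, which held the 11.94, and the others held at most 11.63. The difference from WT was -0.08 and -0.18 at the first times, not called, and -0.43 ± 0.12 (SE) at 1 h (limma, adjusted p = 0.653, 0.228 and 0.00155). With RSKi47 the difference at 1 h was -0.47, and these arms were not tested against each other. Without replicate 2 the Nfkb1[SS/AA] difference at 1 h was -0.52, so that its rank at that time depends on this library. Cebpb exceeded its level in Map3k8[D270A] cells by 0.55 before LPS and 0.80 at 0.5 h (adjusted p = 6.97e-05 and 1.66e-08), where 36.9% and 39.5% of all genes differed. Limma called 2, 1 and 4 of the C/EBP genes against WT at 0, 0.5 and 1 h, against 32.0%, 32.3% and 42.5% of all genes. The labels tie no WT or Map3k8[D270A] libraries to those of Nfkb1[SS/AA], so that genotype and the run of the experiment cannot be told apart.

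**Figure D3:**
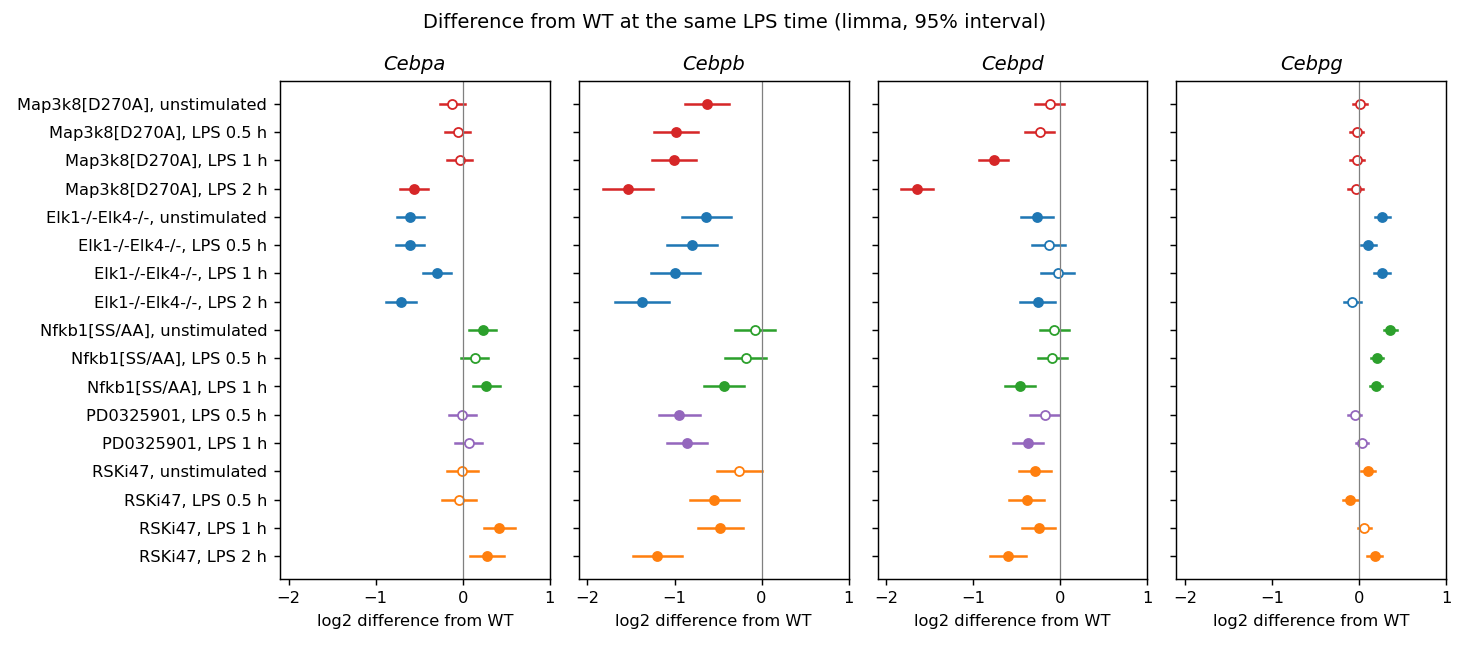
Difference from untreated WT cells at the same LPS time (horizontal axis, log2) for each mutant or inhibitor and time (rows). Dots are limma estimates, filled where the adjusted p was below 0.05, and bars are 95% intervals. Cebpb is below 0 in every row, from -0.08 in unstimulated Nfkb1[SS/AA] cells to -1.53 in Map3k8[D270A] cells at 2 h, and Cebpd reaches -1.65 in Map3k8[D270A] cells at 2 h.

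Cebpd had its largest rise at 2 h. Its value in WT cells went from 8.03 to 8.24 without LPS (median 8.09) to 8.26 to 8.50 at 0.5 h (median 8.41) and 8.55 to 9.02 at 1 h (median 8.74). At 2 h the 4 libraries held 10.04, 10.21, 10.28 and 9.83. The groups of the 4 times did not overlap. The rise was 0.30 ± 0.08 (SE), 0.66 ± 0.08 and 1.98 ± 0.09, the last of them 3.95-fold (limma, adjusted p = 0.0112, 1.04e-09 and 3.46e-26).

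In Map3k8[D270A] cells most of the rise of Cebpd at 2 h was missing. The 6 libraries lay between 7.84 and 8.11 without LPS, 8.03 and 8.29 at 0.5 h, 7.86 and 8.17 at 1 h and 8.07 and 8.72 at 2 h, with medians of 8.03, 8.18, 8.0 and 8.51. From 1 h on they were wholly below WT. The difference from WT was -0.12 and -0.24 at the first times, not called, then -0.77 ± 0.08 (SE) at 1 h and -1.65 ± 0.09 at 2 h, or 0.587 and 0.320 of the WT level (limma, adjusted p = 0.612, 0.177, 3.35e-10 and 3.08e-20). LPS added 0.02 ± 0.08 at 1 h and 0.46 ± 0.08 at 2 h in these cells (adjusted p = 0.9 and 2.71e-06). The gap to the WT rise was -0.65 ± 0.12 at 1 h, when 2.02% of all genes had such a gap, and -1.52 ± 0.12 at 2 h (adjusted p = 0.000222 and 8.27e-14). Within the first and second sets of replicates the gap was -0.89 and -0.40 at 1 h, the latter not called (adjusted p = 0.214), and -1.46 and -1.41 at 2 h. The difference from WT at 2 h was -1.49 and -1.63 within these sets.

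The TCF mutant did not share that loss of Cebpd. Elk1-/-Elk4-/- libraries held 7.89, 7.87, 7.82 and 7.78 without LPS, 8.23, 8.36, 8.29 and 8.18 at 0.5 h, and 8.76, 8.78, 8.77 and 8.64 at 1 h. At 2 h they held 9.94, 9.68, 9.73 and 9.95, which overlaps WT. LPS added 0.43, 0.90 and 1.99 ± 0.10 (SE) at the 3 times, when 4.96%, 33.3% and 67.2% of all genes were called, with a gap to the WT rise at 2 h of 0.01 ± 0.14 (limma, adjusted p = 0.985). Cebpd in Elk1-/-Elk4-/- cells was above Map3k8[D270A] cells by 0.74 ± 0.09 at 1 h and 1.38 ± 0.09 at 2 h with no overlap (adjusted p = 2.13e-10 and 1.22e-23), while Cebpb showed no called difference between the same libraries. Against this, 53.3% and 51.2% of all genes differed between these mutants at 1 and 2 h. Against WT, Cebpd differed by -0.27 before LPS and by -0.26 at 2 h (adjusted p = 0.014 and 0.0284). The call at 2 h was lost on leaving out WT replicate 5 or 6 or Elk1-/-Elk4-/- replicate 2 or 3, with values of -0.22, -0.20, -0.21 and -0.23.

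Cebpd was also lower than in WT at 1 h with PD0325901 and in Nfkb1[SS/AA] cells. With PD0325901 it lay between 8.14 and 8.31 at 0.5 h and between 8.25 and 8.48 at 1 h, the latter wholly below WT with a difference of -0.37 ± 0.08 (SE; limma, adjusted p = 0.000273). It was 0.40 above Map3k8[D270A] cells at 1 h (adjusted p = 8.65e-05), where 40.7% of all genes differed. Over the matched time in inhibitor alone, LPS added 0.48 and 0.94 to Cebpd at 0.5 and 1 h, and the gaps to the WT rise were 0.19 and 0.28 and not called (adjusted p = 0.719 and 0.318). Over 10 min of inhibitor it added 0.24, not called, and 0.41 (adjusted p = 0.158 and 0.000538), and the gaps were of the opposite sign, -0.06 and -0.25, and not called either (adjusted p = 0.926 and 0.379). Without LPS it fell in the inhibitor from 7.98, 7.89 and 8.09 at 10 min to 7.47, 7.57 and 7.31 at 70 min, opposite in direction to Cebpb. That decline came to -0.53 ± 0.12 (adjusted p = 0.00137). Nfkb1[SS/AA] libraries at 1 h lay between 7.85 and 8.60 around 8.35, a difference from WT of -0.46 ± 0.08 with some overlap (adjusted p = 3.39e-06). The gap to the WT rise there was -0.39 (adjusted p = 0.029), where 6.07% of all genes had such a gap, and WT replicate 5 before LPS, WT replicates 4 to 6 at 1 h, Nfkb1[SS/AA] replicates 4 and 5 before LPS and replicate 3 at 1 h each ended that call when left out (-0.38 to -0.30).

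RSKi47 cells kept most of the rise of Cebpd. They held 7.75, 7.77, 7.95 and 7.80 without LPS, 8.07, 8.09 and 7.88 at 0.5 h, 8.16, 8.78, 8.71 and 8.43 at 1 h and 9.32, 9.58, 9.60 and 9.42 at 2 h. Differences from WT were -0.29, -0.39, -0.25 and -0.61 in order of time (limma, adjusted p = 0.00689, 0.00117, 0.0213 and 5.14e-07), so that Cebpd was lower already before LPS. The call at 1 h was lost on leaving out WT replicate 4 or 5 or RSKi47 replicate 1 or 4 (-0.20, -0.21, -0.13 and -0.22). The rise at 2 h was 1.67 ± 0.10 (SE), when 62.2% of all genes were called, and its gap to WT of -0.32 was not called (adjusted p = 0.102), except without WT replicate 7 (-0.40, adjusted p = 0.0328).

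**Figure D4:**
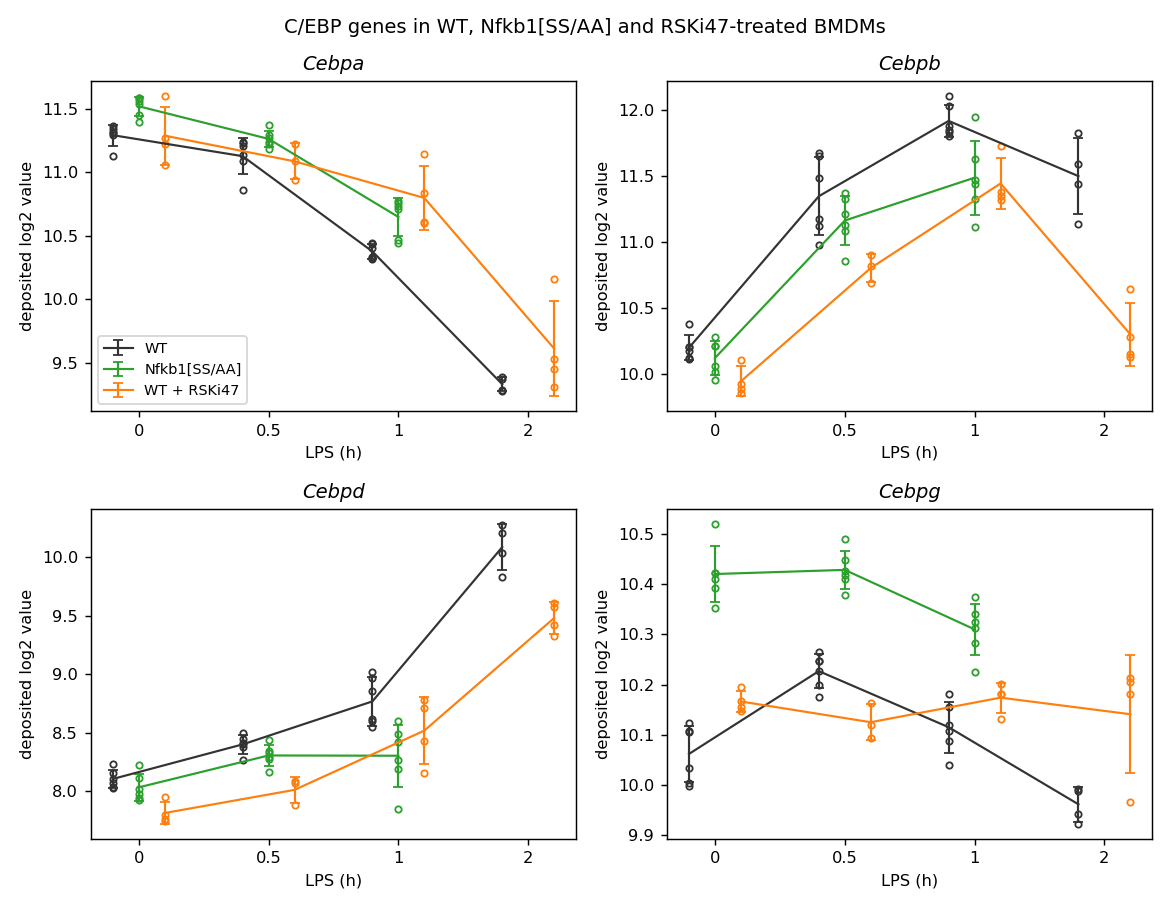
Deposited log2 value (vertical axis) of each C/EBP gene by hours of LPS (horizontal axis, equal steps) in WT, Nfkb1[SS/AA] and RSKi47-treated BMDMs. Open circles are libraries, and lines and bars are means ± SD. At 2 h the RSKi47 means are 10.30 for Cebpb and 9.48 for Cebpd, against WT means of 11.50 and 10.09.

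Cebpa had the largest fall of the 4 genes in WT cells, where Cebpg was also called lower at 2 h. It lay between 11.13 and 11.36 without LPS (median 11.31), between 10.86 and 11.24 at 0.5 h (median 11.17) and between 10.31 and 10.44 at 1 h (median 10.37). The libraries at 2 h held 9.37, 9.38, 9.28 and 9.29. From 1 h on the groups did not overlap the unstimulated one. The change was -0.17 ± 0.07 (SE) at 0.5 h, not called, -0.92 ± 0.07 at 1 h and -1.96 ± 0.08 at 2 h, to 0.530 and 0.257 of the starting level (limma, adjusted p = 0.13, 9.95e-17 and 4.28e-29). Every arm sampled at 2 h showed a called fall of Cebpa of at least 1.68.

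In Map3k8[D270A] cells Cebpa was called lower than in WT at 2 h. Map3k8[D270A] libraries lay between 11.12 and 11.24 without LPS, between 10.25 and 10.46 at 1 h and between 8.40 and 9.09 at 2 h, the last group wholly below WT. The difference at 2 h was -0.56 ± 0.08 (SE; limma, adjusted p = 1.27e-07), and the gap to the WT change was -0.44 ± 0.11 (adjusted p = 0.00201). The difference was -0.81 in the first set of replicates and -0.29 in the second, which has 1 WT library at 2 h and where it was not called (adjusted p = 0.114). The gap was -0.63 in the first set and -0.23, not called, in the second (adjusted p = 0.389). Differences before 2 h were -0.12, -0.06 and -0.03 and were not called.

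Elk1-/-Elk4-/- cells had less Cebpa at all 4 times, from before LPS on. They held 10.63, 10.79, 10.85 and 10.50 without LPS and 8.61, 8.48, 8.68 and 8.70 at 2 h. The groups of all times were wholly below WT, with differences of -0.60, -0.61, -0.29 and -0.71 (limma, SE 0.08 to 0.09, adjusted p = 1.16e-08, 1.79e-08, 0.00153 and 1.52e-09). Against Map3k8[D270A] cells the differences were -0.48, -0.55 and -0.26 at the first 3 times (adjusted p = 3.66e-06, 2.36e-07 and 0.00991), where 51.9%, 51.3% and 53.3% of all genes differed. The last of these calls was lost without Elk1-/-Elk4-/- replicate 4 (-0.21). Macrophage and granulocyte markers moved with this arm as given above, and their part in these values was not tested.

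Cebpa was higher than in WT cells in the remaining arms where it differed. Nfkb1[SS/AA] libraries lay between 11.40 and 11.58 without LPS and between 10.44 and 10.78 at 1 h, above WT by 0.23 and 0.27 (limma, adjusted p = 0.0202 and 0.00354). Without WT replicate 8 the first value was 0.20 and was not called. With RSKi47 and LPS Cebpa held 10.60, 10.84, 10.61 and 11.14 at 1 h and 9.45, 9.53, 9.31 and 10.16 at 2 h, where replicate 4 was the highest both times. The difference from WT was 0.42 ± 0.09 (SE) at 1 h and 0.28 ± 0.10 at 2 h (adjusted p = 3.64e-05 and 0.0115). Without replicate 4 the value at 2 h was 0.0991 and was not called. The summed adipocyte and stromal markers, 6 of 9 of them low in every group, were at 5.47 to 7.45 with RSKi47 at 1 h against 4.74 to 5.52 in WT. At 2 h they were at 6.24 to 6.88 against 5.85 to 6.28, and their part in these values was not tested. PD0325901 cells with LPS differed from WT by -0.00 and 0.07, with 95% intervals that together run from -0.16 to 0.23, and 70 min of the inhibitor alone added 0.37 over 10 min (adjusted p = 0.0317), a call lost on leaving out replicate 2 or 3 at 10 min or any one of the libraries at 70 min (0.34 to 0.40).

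Cebpg, the partner without an activation domain, moved within narrow limits. Over all libraries it lay between 9.73 and 10.52. WT cells held 10.00 to 10.12 without LPS and 10.18 to 10.26 at 0.5 h, a rise of 0.17 ± 0.04 (SE; limma, adjusted p = 0.00184), and were back at 10.04 to 10.18 at 1 h. Within WT replicates 4 to 6 the rise at 0.5 h was 0.10 and not called (adjusted p = 0.0687), and within WT replicates 7 to 9 it was 0.23 and called. At 2 h they held 9.99, 9.92, 9.94 and 9.99, a change of -0.10 (adjusted p = 0.0355) that was not called on leaving out unstimulated replicate 4, 5 or 6 or 2 h replicate 5 or 6 (-0.09 each). It was -0.16 within replicates 4 to 6 and -0.02, not called, within replicates 7 to 9 (adjusted p = 0.782), which have 1 library at 2 h. Map3k8[D270A] cells matched WT to within 0.04 at every time, with none of these differences called (adjusted p = 0.538 to 0.949) and 95% intervals that together run from -0.13 to 0.09.

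Where Cebpg differed between arms, it was mostly higher than in WT. Elk1-/-Elk4-/- libraries held 10.32, 10.25, 10.38 and 10.36 without LPS, wholly above WT by 0.27 ± 0.04 (SE; limma, adjusted p = 1.1e-06), and above it again by 0.26 at 1 h (adjusted p = 1.65e-06). At 0.5 h the difference was 0.10 (adjusted p = 0.0465), with overlap, and the call was lost without WT replicate 5, 6, 8 or 9 or Elk1-/-Elk4-/- replicate 1, 3 or 4 (down to 0.087). By 2 h they held 9.82, 9.93, 10.06 and 9.73. Their change over 2 h of LPS was -0.45 ± 0.05, with a gap to the WT change of -0.35 ± 0.06 (adjusted p = 7.74e-05). Nfkb1[SS/AA] libraries lay between 10.35 and 10.52 before LPS, 0.36 ± 0.04 above WT (adjusted p = 1.37e-14), and were above it by 0.20 and 0.19 at 0.5 and 1 h with no overlap. DMSO controls held 10.44, 10.37 and 10.40, above untreated WT by 0.34 ± 0.04 (adjusted p = 1.63e-09). After 40 min of PD0325901 Cebpg had dropped to 9.92, 9.91 and 10.07, a change of -0.46 from 10 min (adjusted p = 6.19e-12). At 2 h with RSKi47 it was 0.18 above WT (adjusted p = 0.000276), at 10.21, 9.97, 10.21 and 10.18. At 0.5 h with RSKi47 it was lower, at 10.12, 10.09 and 10.16, by -0.10 (adjusted p = 0.0441), a call lost without WT replicate 4, 7, 8 or 9 or RSKi47 replicate 1 or 2 (-0.12 to -0.086 over all libraries left out).

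Per kilobase of exon, the 4 genes changed rank in WT cells during 2 h of LPS. Before LPS, Cebpa led at 9.89 ± 0.08 log2 per kb (SD, n = 6), followed by Cebpb at 9.61 ± 0.10, Cebpg at 7.57 ± 0.06 and Cebpd at 6.20 ± 0.08. Of the neighbours in this order only Cebpa and Cebpb overlapped, at 9.73 to 9.96 and 9.52 to 9.79. After 2 h, Cebpb led at 10.91 ± 0.29 (n = 4), followed by Cebpd at 8.18 ± 0.20, Cebpa at 7.93 ± 0.05 and Cebpg at 7.47 ± 0.03. The ranges of Cebpd and Cebpa then met, from 7.92 to 8.37 and from 7.88 to 7.99. These levels use exons merged over all GENCODE transcripts of a gene, 2636, 1504, 3746 and 5621 bases for Cebpa, Cebpb, Cebpd and Cebpg. The study counted reads on RefSeq genes. Only Cebpd was repeated with another length, so that the ranks of the others hold for these lengths alone. With the RefSeq span of 2260 bases, Cebpd stood at 6.93 before LPS and 8.91 at 2 h. It kept the lowest rank before LPS and stood clear above Cebpa at 2 h.

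The genes most like each member over the means of all 25 groups were different for each of them. Pearson's r was highest for Cebpa with F8a and Lpar5, a receptor for lysophosphatidic acid, both at 0.975, then with Nfam1 at 0.972 and Mast1 and Klhl36 at 0.971. Cebpb was most like Errfi1, a feedback inhibitor of the EGF receptor, at 0.870 and Zfand5 at 0.851. Id2, a helix-loop-helix inhibitor, Maff, a small Maf protein, and Kdm6b, a histone H3K27 demethylase, followed at 0.841. Cebpd was most like Vta1 at 0.919, Dmtf1 and Gramd1a at 0.915, Hcar2, the niacin receptor, at 0.912 and Acbd3 at 0.908. Cebpg had the lowest likeness, with Fbxo3 at 0.830, Cpeb1 at 0.775, Fam63b and Scrn3 at 0.771 and Zscan21 at 0.759. Among the members themselves, Cebpa and Cebpd had an r of -0.796 and Cebpb and Cebpd of 0.369. The points share controls and LPS times, so these values only describe the pattern.

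Genes known as C/EBP targets in macrophages or inflammation rose widely in WT cells. Of 28 such genes 23 were tested, and limma called 8 higher at 0.5 h, 18 at 1 h and 20 at 2 h, with 1 lower at 2 h, Pparg (-0.78). Of all genes 11.6%, 46.8% and 71.5% were called in either direction at these times. The median change of the 23 was 0.04, 1.31 and 3.09, against -0.00, 0.00 and -0.02 over all genes tested. The largest rises were those of the chemokine gene Cxcl1 (3.85) and Tnf (3.81) at 0.5 h, Il1b (6.15) at 1 h, and Il12b (7.88) and Nos2 (6.65), the inducible nitric oxide synthase, at 2 h. In Map3k8[D270A] cells 1 of the 23 was lower than in WT at 0.5 h (Clec4e, -0.44), 7 at 1 h and 14 at 2 h, and none was higher. Of all genes, 0.892%, 4.64% and 13.1% were lower at these times and 0.480%, 5.14% and 14.6% higher. At an unadjusted p of 0.05, 3 of the 23 differed before LPS, where none was called, and 7 at 0.5 h, against 1420 and 1338 of all 11884 genes. The most lowered were Il1b (-1.22) and Ptgs2 (-1.12), which encodes the prostaglandin synthase COX-2, at 1 h, and Il10 (-2.57), Il1b (-2.18) and the acute phase gene Saa3 (-1.59) at 2 h. The list median at 2 h was -0.43, against 0.01 over all genes.

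The target genes split in both directions in the other arms. Elk1-/-Elk4-/- cells had 7 higher and 1 lower before LPS, and 5 higher and 9 lower at 2 h, where 51.8% and 50.8% of all genes were called. Higher at 2 h were Hp (1.67), which encodes haptoglobin, Nos2 (2.03) and Lcn2 (1.63), the last also a granulocyte product, and among the lower were Il1b (-0.88) and the scavenger receptor gene Marco (-0.78). Granulocyte markers were higher in this arm as given above, and their part in all of these values was not tested. With PD0325901, 7 were higher and 7 lower at 1 h, against 35.6% of all genes called, among them Lcn2 (1.06), Il1b (-1.03) and Il10 (-0.95). Nfkb1[SS/AA] cells had 7 higher and 8 lower at 1 h, against 42.5% of all genes, with Saa3 (2.12) and Ptgs2 (-1.64) at the ends. RSKi47 cells had 7 higher and 10 lower at 2 h, against 52.1% of all genes, with Hp (1.23) highest and Il10 (-1.95), Ccl2 (-1.15) and the prostaglandin E synthase gene Ptges (-1.11) lowest.

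Of 16 genes known to act on C/EBP genes or proteins, 15 were tested. Trib1, a pseudokinase that marks C/EBPα for degradation, rose in WT cells by 0.96 at 0.5 h and 1.90 at 1 h, and differed in Map3k8[D270A] cells by -0.56 at 1 h and -0.71 at 2 h. It was also lower in Elk1-/-Elk4-/- cells before LPS (-0.59), at 1 h (-0.64) and at 2 h (-0.73), with PD0325901 at 1 h (-0.90), with RSKi47 before LPS (-0.21) and at 2 h (-0.23), and in Nfkb1[SS/AA] cells before LPS (-0.58), at 0.5 h (-0.24) and at 1 h (-0.996). Trib3, of the same family, was called higher than in WT at 1 or more times in each of the 5 arms. The difference was 0.34 and 0.81 in Map3k8[D270A] cells at 1 and 2 h, 0.43 to 0.72 over the 4 times in Elk1-/-Elk4-/- cells and 1.03, 1.03 and 1.53 in Nfkb1[SS/AA] cells. With PD0325901 it was 0.29 and 0.66 at 0.5 and 1 h, and with RSKi47 0.52, 0.67 and 0.76 from 0.5 to 2 h. Spi1, which encodes the myeloid factor PU.1, rose by 0.93 in WT cells at 2 h and was lower in both Map3k8[D270A] (-0.24) and Elk1-/-Elk4-/- cells (-0.33). Over the list, limma called 3 higher and 3 lower in Map3k8[D270A] cells at 2 h, with a median of -0.06, where 27.7% of all genes were called.

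The list of other leucine zipper genes, known to pair with C/EBPs or to bind like sites, also holds Cebpz, a CCAAT-binding protein of another family. Of its 12 genes 10 were tested. In WT cells limma called 5 higher and 3 lower at 2 h, when 71.5% of all genes were called, with Batf (2.90) and Nfil3 (2.31) at the top and Dbp (-1.36) and Tef (-1.03), both clock output factors, at the bottom. Ddit3, the C/EBP partner known as CHOP, fell by 0.93 at 2 h. In Map3k8[D270A] cells Batf (-0.91), Nfil3 (-0.32) and Cebpz (-0.16) were lower and Atf3 (0.28) higher at 2 h. With RSKi47 Batf (-1.79) and Nfil3 (-1.09) were lower than in WT at 2 h. Atf4, a partner of C/EBPγ, was higher in Nfkb1[SS/AA] cells by 0.38, 0.69 and 0.75 at 0, 0.5 and 1 h. It was also called higher with PD0325901 at 0.5 and 1 h (0.24 and 0.28), with RSKi47 at 0.5 h (0.25) and in Map3k8[D270A] cells at 1 h (0.13). In Elk1-/-Elk4-/- cells it was called lower at 1 and 2 h (-0.15 and -0.20).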

How the data were processed

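The sources used here describe TruSeq libraries sequenced as single-end, strand-specific reads. The submitters' processing notes name STAR 2.5.1b, RSEM 1.2.29, DESeq2 1.10.1 and the mm10 build. The study's methods give other versions of STAR and RSEM than these notes. The authors deposited normalised values per gene on a log scale, read here as log2, which are not counts, so no count test was made. A typical yield over the libraries is stated in the study's methods, but the depth of a given library is not known here. The transformation of the deposited values is not stated. The members and gene lists were chosen with earlier results of these data known. Genes that reached 10 on the linear scale in 4 or more libraries (WT, Map3k8[D270A] and Elk1-/-Elk4-/-, 62 libraries, 11884 genes) or in 3 or more (all libraries, 11970 genes) were fitted with limma 3.58.1 in R 4.3.3, with 1 term per group, eBayes without trend and Benjamini-Hochberg adjustment over all genes tested. A call is an adjusted p below 0.05. Each gene list was named by up to 3 called genes in each direction with the largest change. One value, 57.73, lay out of range, and its gene, Fosb, was left out of the second fit. The fit was tested on simulated data. No pair of libraries was identical. Not every marker list is reported here.

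Same-numbered libraries deviated together, with a correlation over 0.1, in 30 of 30 pairs within the WT arm and 18 of 18 within Nfkb1[SS/AA]. The count was 34 of 36 within Map3k8[D270A], 20 of 21 with RSKi47, 20 of 24 within Elk1-/-Elk4-/-, 18 of 48 with PD0325901 and 0 of 12 between WT and Map3k8[D270A]. By the rule that every pair must pass, numbers pair LPS times within the first 2 arms and do not pair arms with each other. Map3k8[D270A] and RSKi47 missed this rule, though same numbers had median correlations of 0.425 and 0.318 there. The main fit took no account of such pairing, and the replicate block below did. The group of a library, its stimulus and its inhibitor were taken from the labels.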

Additional observations from a re-analysis of the deposited data

Results flagged for a closer look

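The LPS response of a C/EBP gene differed from that in WT cells, by limma's interaction test, in 12 of 52 tests. Over all genes, 0.0167% to 21.0% had a called gap, depending on the arm and time, with 15.5%, 16.9% and 21.0% at 2 h in Map3k8[D270A], Elk1-/-Elk4-/- and RSKi47 cells and 6.07% or less at the earlier times. In Map3k8[D270A] cells the gap was -0.65 for Cebpd at 1 h, and at 2 h it was -1.52 for Cebpd, -0.91 for Cebpb and -0.44 for Cebpa. In Elk1-/-Elk4-/- cells at 2 h it was -0.74 for Cebpb and -0.35 for Cebpg. With PD0325901 it was -0.73 and -1.22 for Cebpb at 0.5 and 1 h, and with RSKi47 -0.94 for Cebpb at 2 h and 0.43 for Cebpa at 1 h. In Nfkb1[SS/AA] cells at 1 h it was -0.39 for Cebpd and -0.16 for Cebpg.

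Some of these calls depended on the libraries or the baseline used. In WT replicates 7 to 9 with Map3k8[D270A] replicates 4 to 6, the gap of Cebpd at 1 h (-0.40) and that of Cebpa at 2 h (-0.23) were not called. With 10 min of PD0325901 as baseline, the Cebpb gaps with that inhibitor were -0.12 and -0.04 and not called (limma, adjusted p = 0.871 and 0.954). In a fit of the arms compared only, the gap of Cebpd in Nfkb1[SS/AA] cells and that of Cebpa with RSKi47 were not called (limma, adjusted p = 0.0845 and 0.161). The Cebpg gap in Nfkb1[SS/AA] cells was not called with libraries centred on their median (-0.14) or with array weights (-0.12). The Cebpa gap with RSKi47 was not called without unstimulated RSKi47 replicate 1 or 3 or replicate 4 at 1 h (0.35, 0.40 and 0.31), and the Cebpb gap with PD0325901 at 0.5 h not without replicate 2 or 3 at 40 min (-0.72 and -0.63). The Cebpd gap in Nfkb1[SS/AA] cells was lost without WT replicate 5 before LPS, WT replicate 4, 5 or 6 at 1 h, Nfkb1[SS/AA] replicate 4 or 5 before LPS or replicate 3 at 1 h (-0.38 to -0.30). The Cebpg gap there was lost without WT replicate 7 or 8 before LPS, WT replicate 4 or 5 at 1 h, or Nfkb1[SS/AA] replicate 3 before LPS or 2 at 1 h (-0.16 to -0.14).

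A single library stood apart from the rest of its group in 7 of 80 cases, where chance gives about 1 in 20. Before LPS, WT replicate 8 was lowest for Cebpa at 11.13, and WT replicate 9 highest for Cebpb at 10.38. Map3k8[D270A] replicate 4 was highest for Cebpb at 2 h with 10.27, and RSKi47 replicate 1 at 1 h with 11.73. Among Elk1-/-Elk4-/- libraries at 1 h, replicate 4 was lowest for Cebpd at 8.64 and replicate 3 highest for Cebpg at 10.44. RSKi47 replicate 2 was lowest for Cebpg at 2 h with 9.97.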

How the results depend on the processing

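Most calls kept their side of the threshold. Of 244 results for the members, 214 had no call changed by leaving out any library in turn, and an intensity trend with robust eBayes changed 1 call. The depth of each library is not known here, which limits what can be said of small differences. The cause of the changes below was not tested. The calls named are mainly those of LPS responses of WT and of differences from WT. Over all 244 results, which add the responses of other arms, their gaps to WT and comparisons between arms, array weights gained 15 calls and lost 4, the fit of the arms compared 2 and 5, quantile normalization 3 and 5, and no filter and centring each lost 4.

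Without a filter on low values, the Cebpg differences from WT at 0.5 h in Elk1-/-Elk4-/- (0.10) and RSKi47 cells (-0.10) were no longer called. Centring libraries on their median did the same (0.11 and -0.096). With quantile normalization, Cebpg lost its call in Elk1-/-Elk4-/- cells at 0.5 h (0.090) and in unstimulated RSKi47 cells (0.067), while the WT response of Cebpa at 0.5 h (-0.20) and Cebpb in unstimulated RSKi47 cells (-0.30) gained one. Array weights gained calls for Map3k8[D270A] in Cebpa before LPS (-0.15), Cebpd at 0.5 h (-0.20) and Cebpg at 2 h (-0.086). They also gained them for Cebpg in Elk1-/-Elk4-/- cells at 2 h (-0.13), Cebpd with PD0325901 at 0.5 h (-0.16) and Cebpb in unstimulated RSKi47 cells (-0.28). Cebpa with RSKi47 at 2 h lost its call with array weights (0.11) and in a fit of the arms compared only (0.28).

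With the replicate block, Cebpd gained calls in Map3k8[D270A] cells before LPS (-0.27) and at 0.5 h (-0.38), in Elk1-/-Elk4-/- cells at 0.5 h (-0.33) and 1 h (-0.22) and with PD0325901 at 0.5 h (-0.27), and Cebpg lost its call in Elk1-/-Elk4-/- cells at 0.5 h (0.059) and in unstimulated RSKi47 cells (0.083). Numbers do not pair libraries between these arms. Of the LPS responses within an arm, the block changed the call of Cebpg in Map3k8[D270A] cells at 0.5 h (0.12, gained) and of Cebpb with PD0325901 at 0.5 h (0.34, lost), and no other. The gap of Cebpa between RSKi47 and the WT response at 2 h also gained a call (0.32).

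Within WT replicates 4 to 6 and Map3k8[D270A] replicates 1 to 3, the Cebpg response of WT at 0.5 h (0.10) and the Cebpb difference before LPS (-0.65) and at 0.5 h (-0.67) were not called, and Cebpa before LPS was (-0.18). Within the other libraries, the Cebpg response of WT at 2 h (-0.020) and the Cebpa difference at 2 h (-0.29) were not called, and Cebpd at 0.5 h was (-0.36). With PD0325901 replicates 1 and 4, 2 and 5, and 3 and 6 averaged, the Cebpb gain at 0.5 h (0.42) and its gap to WT (-0.73) were not called. With array weights the gap of Cebpd was called with PD0325901 at 0.5 h (0.30) and with RSKi47 at 2 h (-0.29). With 10 min of PD0325901 as baseline, the Cebpg response reversed to -0.25 at 0.5 h and -0.27 at 1 h, and its gap to WT to -0.41 and -0.33.

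Leaving out each library in turn changed calls in 9 results that answer a comparison. For Cebpg these were the WT response at 2 h (-0.11 to -0.087), Elk1-/-Elk4-/- at 0.5 h (0.087 to 0.13) and 2 h (-0.14 to -0.027), and RSKi47 before LPS (0.092 to 0.12) and at 0.5 h (-0.12 to -0.086). For Cebpd they were Elk1-/-Elk4-/- at 2 h (-0.35 to -0.20) and RSKi47 at 1 h (-0.34 to -0.13), and for Cebpa Nfkb1[SS/AA] before LPS (0.20 to 0.25) and RSKi47 at 2 h (0.099 to 0.38).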
